A study of Mus musculus with 9 samples.

Results

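Oligodendrocytes are the cells that wrap axons of the brain in myelin. The genes described here are 33 genes of that lineage, from its precursors to the proteins of compact myelin, and 31 of them were measured among 19147 genes with a single symbol. Each gene is represented by the probe set annotated to that gene alone, taking the one with the highest mean log2 intensity over all 9 arrays where a gene had several, as 8 of the 31 did. Of these, 6 are precursor and lineage factors, 4 mark committed or newly formed cells, 14 are myelin genes and 7 are broader genes of the lineage. Sox10 and Mog were not analysed here.

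Total RNA of C57BL/6 mouse cerebella at postnatal day 5 was hybridised to custom Affymetrix arrays, in 3 groups of 3 arrays. The wild type group carries no transgene named in the labels. The SmoA2 group carries a transgene with an activating mutation of Smoothened, the signal transducer of the Sonic hedgehog (Shh) pathway, under a fragment of the Neurod2 (ND2) promoter that is active in granule neuron precursors. The third group is labelled Smo/Smo and nothing more. By elimination it should be the SmoA1 line of the design text, which carries a similar transgene. The labels name the tissue as brain and the design text as cerebellum. The titles give Smo/Smo animals codes that begin differently from all the rest, and the labels do not say what the beginning stands for. Genotype and whatever it marks cannot be told apart for that group. Each array carries a code of its own, but nothing else says how the mice were kept apart, and p-values then measure only the spread between these arrays.

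Oligodendrocyte precursors carry the receptor Pdgfra and the proteoglycan Cspg4 (NG2), divide in response to the ligand Pdgfa, and spread through the brain from ventral and later dorsal sources, with Shh among the signals that induce Olig2 in the ventral source. They then pass through a committed stage marked by Gpr17, Enpp6 and Bcas1, and the factor Myrf turns on the genes of myelin. In the mouse cerebellum myelin forms from the deep white matter outwards in the early postnatal weeks, and at the age studied it is only beginning. The transgene promoter is not one of oligodendrocytes, and in bulk tissue fewer cells of a type and less RNA per cell cannot be told apart.

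Array medians of the deposited intensity were 91.0 to 95.1, and any pair of the 9 arrays correlated at 0.994 to 0.998 over all probe sets on the log2 scale. Precision is set by the number of arrays, as there is no read depth. Sex was inferred here, with 4 arrays taken as female because Xist read above the mean of 3 Y-linked genes. These were wild type replicates 1 and 3, SmoA2 replicate 1 and Smo/Smo replicate 1, so inferred sex was not balanced over the groups. In these 4 arrays the Y-linked probe sets read 2.80 to 5.57 on the log2 scale, which was taken as the range of background. The means of Ermn, Nkx6-2, Gjb1 and Gpr37 lay inside that range, so 27 of the 31 genes were above it. As a check of the labels, Gli1, a target of Shh signalling, rose by 0.50 ± 0.07 (log2 fold change ± SE, limma, adjusted p = 0.00801) in SmoA2 and read 0.08 ± 0.07 higher in Smo/Smo (adjusted p = 0.825). Ptch1, the pathway's receptor and target, rose by 0.26 ± 0.05 in SmoA2 (adjusted p = 0.0371) and read 0.08 ± 0.05 higher in Smo/Smo (adjusted p = 0.741). Ccnd1, the cyclin D1 gene, rose by 0.96 ± 0.15 in SmoA2 (adjusted p = 0.0116) and read 0.68 ± 0.15 higher in Smo/Smo (adjusted p = 0.161).

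Most of the lineage genes did not pass the test in either mutant, and the one that did was a myelin gene. In SmoA2 against wild type, Tspan2 fell and none of the 31 rose (limma, Benjamini-Hochberg adjusted p under 0.05 over all 19147 genes). That is 3.23% of the members against 2.69% of all genes called in either direction and 1.73% called lower. At an unadjusted p under 0.05, 4 members read higher and 5 lower, 9 of 31, where 14.8% of all genes passed. The SmoA2 arrays did not overlap the wild type arrays for 10 members, 4 higher and 6 lower, which is 32.3% against 19.1% of all genes. The median log2 fold change of the members was -0.07, and that of all genes was 0.01. The members' median was -0.03 without wild type replicate 2, -0.04 without SmoA2 replicate 2 and -0.11 without wild type replicate 1. In fits without SmoA2 replicate 1 or 2 the 1 called member was another, Olig1 (adjusted p = 0.0447) or Bcas1 (adjusted p = 0.0272), both higher.

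In Smo/Smo against wild type no member was called, where 0.371% of all genes were. At an unadjusted p under 0.05, 3 members read higher and 1 lower, where 8.77% of all genes passed. The groups did not overlap for 3 members, 9.68% against 15.9% of all genes, and the median log2 fold change was 0.02, which turned to -0.01 on leaving out wild type replicate 1 and to -0.0035 when Smo/Smo replicate 1 was dropped. In the direct comparison of the mutants, Tspan2 and Cldn11 were lower in SmoA2 than in Smo/Smo and none was higher. These are 6.45% of the members, against 2.56% of all genes called in either direction and 1.54% called lower. At an unadjusted p under 0.05, 4 members read higher and 7 lower in SmoA2, where 14.3% of all genes passed, and 11 members did not overlap, 35.5% against 18.2% of all genes. The median difference between the mutants was -0.13, and -0.08 without SmoA2 replicate 2 or -0.07 without Smo/Smo replicate 1. Both mutant comparisons use the same 3 wild type arrays.

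**Figure D1:**
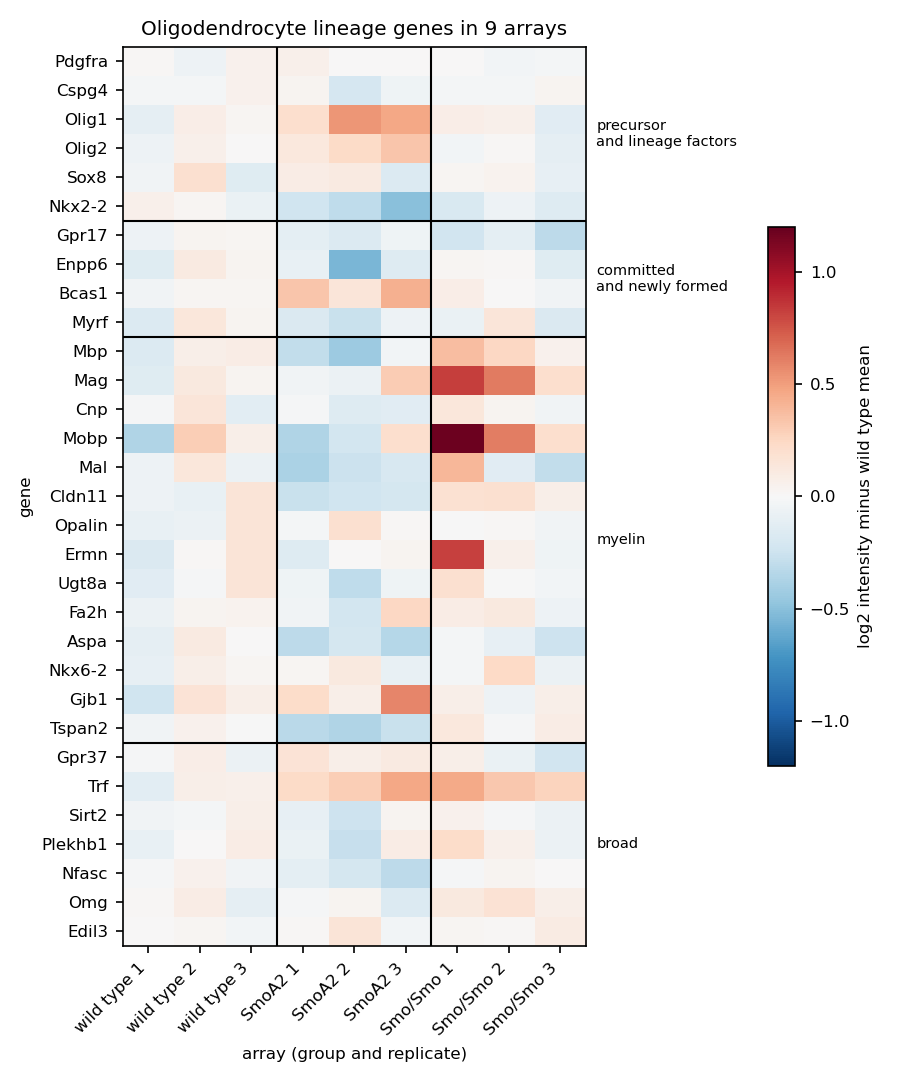
Each row is 1 of the 31 measured genes and each column 1 of the 9 arrays, and colour gives the log2 intensity minus the mean of the 3 wild type arrays. The deepest colour is Mobp in Smo/Smo replicate 1, at 9.35 against a wild type mean of 8.18, while Olig1 and Bcas1 are above the wild type mean in all 3 SmoA2 arrays and Tspan2 and Nkx2-2 below it.

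Of the precursor genes, the receptor Pdgfra read nearly the same in every array. Its log2 intensity was 11.94, 11.86 and 11.98 in wild type, 11.99, 11.93 and 11.93 in SmoA2, and 11.93, 11.89 and 11.91 in Smo/Smo. The 3 groups overlapped throughout. The difference from wild type was 0.02 in SmoA2, with a 95% interval of -0.10 to 0.15, and -0.01 in Smo/Smo, with an interval of -0.14 to 0.11. Cspg4, the proteoglycan of the same cells, differed by -0.07 (interval -0.23 to 0.08) in SmoA2 and by -0.01 (-0.16 to 0.15) in Smo/Smo. Sox8, a SoxE factor of the lineage, differed by 0.01 (interval -0.22 to 0.25) and -0.01 (-0.25 to 0.22). For these 3 genes a difference as large as that of Olig1 in SmoA2 lies outside the interval in both mutants.

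Olig1 and Olig2, the basic helix-loop-helix factors that define the lineage, read higher in all 3 SmoA2 arrays than in any other array. For Olig1 the log2 intensity was 10.40, 10.60 and 10.54 in wild type, 10.71, 11.04 and 10.98 in SmoA2, and 10.60, 10.58 and 10.37 in Smo/Smo. The SmoA2 arrays stood above the rest and the other groups overlapped. The difference of SmoA2 from wild type was 0.40 ± 0.10 (limma, adjusted p = 0.0845), which misses the threshold. Against Smo/Smo it was 0.39 ± 0.10 (adjusted p = 0.0878). Olig2 read 9.78, 9.90 and 9.84 in wild type, 9.96, 10.07 and 10.17 in SmoA2, and 9.81, 9.86 and 9.73 in Smo/Smo, again with the SmoA2 arrays on top. Its difference from wild type was 0.23 ± 0.07 (adjusted p = 0.156), and that from Smo/Smo was 0.27 ± 0.07 (adjusted p = 0.0933). In Smo/Smo the difference from wild type was 0.00 (interval -0.23 to 0.23) for Olig1 and -0.04 (-0.20 to 0.12) for Olig2. Olig1 and Olig2 are neighbours in the genome.

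Nkx2-2, a homeodomain factor that promotes differentiation of precursors, pointed the other way. It read 9.20, 9.16 and 9.05 in wild type, 8.90, 8.83 and 8.64 in SmoA2, and 8.95, 9.07 and 8.98 in Smo/Smo. Every SmoA2 array was below every other array. The difference of SmoA2 from wild type was -0.35 ± 0.08 (limma, adjusted p = 0.0597). It passed the threshold under 5 of 11 other settings and in none of the 9 fits without 1 array, with an adjusted p of 0.0642 to 0.202. A second Nkx2-2 probe set, at a mean of 4.54 in wild type and so within background, differed the other way, by 0.26 ± 0.16. The mean of both differed by -0.04 (adjusted p = 0.869). In Smo/Smo the difference from wild type was -0.13 ± 0.08.

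Among the genes of committed cells, Bcas1, a marker of early myelinating oligodendrocytes, had the widest gap between groups. It read 11.62, 11.68 and 11.69 in wild type, 11.997, 11.81 and 12.09 in SmoA2, and 11.74, 11.67 and 11.62 in Smo/Smo. All SmoA2 arrays lay above all others, with a difference from wild type of 0.30 ± 0.08 (limma, adjusted p = 0.0839). Gpr17, a receptor of committed precursors, read 10.19, 10.28 and 10.27 in wild type, 10.13, 10.08 and 10.19 in SmoA2, and 10.02, 10.13 and 9.93 in Smo/Smo. The Smo/Smo arrays were below the wild type arrays, by -0.22 ± 0.07 (adjusted p = 0.367), and SmoA2 overlapped wild type at -0.11 ± 0.07. Enpp6, a phosphodiesterase of newly formed oligodendrocytes, differed by -0.27 (interval -0.54 to 0.01) in SmoA2, where replicate 2 was the lowest array at 8.19. Myrf, the transcription factor of myelin genes, differed by -0.17 (interval -0.41 to 0.07) in SmoA2 and by -0.03 (-0.27 to 0.20) in Smo/Smo.

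**Figure D2:**
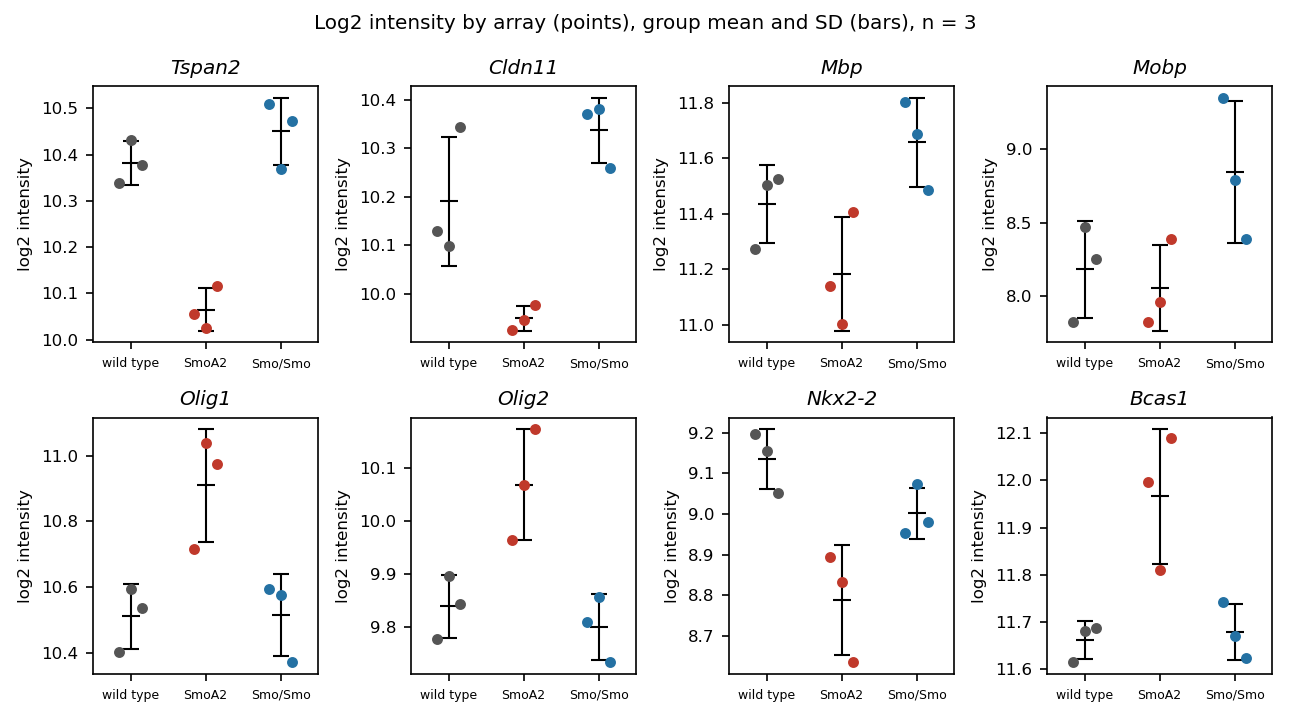
Each panel plots the log2 intensity of 1 gene in the 9 arrays, with the group mean and SD (n = 3). The SmoA2 points of Tspan2, Cldn11 and Nkx2-2 lie below all other points, those of Olig1, Olig2 and Bcas1 above all other points, and Mobp has the widest spread in Smo/Smo, from 8.39 to 9.35.

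Of the myelin genes, Tspan2, which encodes a tetraspanin of the myelin membrane, was the one called against wild type. Its log2 intensity was 10.34, 10.43 and 10.38 in wild type, 10.05, 10.03 and 10.12 in SmoA2, and 10.51, 10.37 and 10.47 in Smo/Smo. The SmoA2 arrays were the 3 lowest, and the wild type and Smo/Smo arrays overlapped. Tspan2 fell by 0.32 ± 0.06 in SmoA2 (1.25-fold, limma, adjusted p = 0.0274) and was 0.39 ± 0.06 lower in SmoA2 than in Smo/Smo (1.31-fold, adjusted p = 0.0125). A second Tspan2 probe set differed by -0.43 ± 0.11 from wild type and by -0.46 ± 0.11 from Smo/Smo, and its adjusted p over all probe sets was 0.083 in the first. The call against wild type rests on the arrays used. It was lost without wild type replicate 1, 2 or 3, without SmoA2 replicate 1 or 2, and without Smo/Smo replicate 3, with an adjusted p of up to 0.104, and the call against Smo/Smo was lost without Smo/Smo replicate 1 (adjusted p = 0.0576) or 3 (0.0603).

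Cldn11, the tight junction protein between layers of myelin, read 10.13, 10.10 and 10.34 in wild type, 9.93, 9.95 and 9.98 in SmoA2, and 10.37, 10.38 and 10.26 in Smo/Smo. The SmoA2 arrays were again the lowest, with the gap to wild type narrower than that to Smo/Smo. It was 0.39 ± 0.07 lower in SmoA2 than in Smo/Smo (1.31-fold, limma, adjusted p = 0.0319), a call that 7 of the 9 fits without 1 array lost, with an adjusted p of up to 0.128. Those fits left out wild type replicate 1 or any of the SmoA2 or Smo/Smo replicates. Against wild type the difference was -0.24 ± 0.07 (adjusted p = 0.163). Cldn11 is also made by cells of the meninges. Of 14 meningeal and fibroblast markers, 9 fell in SmoA2 against wild type and none rose, and 5 were lower in SmoA2 than in Smo/Smo. Over all genes, 1.73% were called lower in the first comparison and 1.54% in the second. The mean log2 level of those markers was 10.05 to 10.09 in the wild type arrays, 9.36 to 9.69 in SmoA2 and 9.95 to 10.00 in Smo/Smo, and their lead genes in SmoA2 were Slc22a6 (-1.42) and Aldh1a2 (-1.57). Their part in the Cldn11 values was not tested.

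The sequence upstream of the start of transcription was examined for both called genes and, next in order of p, Nkx2-2. Windows of 250 bases before the start were taken from the RefSeq promoter table (GRCm38.p6), which held 23 of the 33 genes, and are written in the direction of transcription. Tspan2 (chr3:102734520-102734769, plus strand, the more upstream of its 2 windows), Cldn11 (chr3:31149670-31149919, plus strand) and Nkx2-2 (chr2:147186403-147186652, minus strand) are shown because the groups separate at these genes. Mobp (chr9:120149492-120149741, plus strand) was added after its values were seen, as the gene with the largest difference in Smo/Smo. Capitals mark ACAAAG on either strand, a sequence that Sox factors of the lineage can bind.
Tspan2: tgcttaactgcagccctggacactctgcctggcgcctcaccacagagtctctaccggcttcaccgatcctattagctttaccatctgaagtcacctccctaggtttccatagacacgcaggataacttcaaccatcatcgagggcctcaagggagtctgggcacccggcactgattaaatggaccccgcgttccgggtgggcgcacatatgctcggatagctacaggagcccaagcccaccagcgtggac
Cldn11: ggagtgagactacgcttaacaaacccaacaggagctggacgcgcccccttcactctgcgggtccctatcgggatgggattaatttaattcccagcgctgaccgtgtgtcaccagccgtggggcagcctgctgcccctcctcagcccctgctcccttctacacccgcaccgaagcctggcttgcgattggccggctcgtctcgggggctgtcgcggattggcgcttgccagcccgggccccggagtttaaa
Nkx2-2: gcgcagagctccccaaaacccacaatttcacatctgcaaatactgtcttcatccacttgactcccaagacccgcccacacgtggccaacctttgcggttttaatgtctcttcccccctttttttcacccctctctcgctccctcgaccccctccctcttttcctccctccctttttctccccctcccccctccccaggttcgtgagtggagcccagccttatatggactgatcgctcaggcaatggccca
Mobp: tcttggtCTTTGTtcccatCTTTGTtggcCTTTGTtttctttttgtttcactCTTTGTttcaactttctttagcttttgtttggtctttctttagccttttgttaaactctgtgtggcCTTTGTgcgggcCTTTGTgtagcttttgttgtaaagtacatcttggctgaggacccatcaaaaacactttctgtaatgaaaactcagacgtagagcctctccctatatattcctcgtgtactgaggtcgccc
The Mobp window held this hexamer 6 times, always as CTTTGT, and the windows shown of Tspan2, Cldn11 and Nkx2-2 did not hold it. Over all windows of a gene it was found in 7 of 23 members (Cnp, Gjb1, Mag, Mobp, Opalin, Plekhb1 and Tspan2), or 30.4%, and in 18.6% of the 27025 genes of the table. The Gli consensus GACCACCCA, searched on both strands, was in 0 of 23 members and in 0.255% of all genes. The E-box CAGCTG, a form that Olig factors can bind and which reads the same on both strands, was in 1 of 23, Aspa, and in 14.7% of all genes. No 2 of these motifs overlap within the 4 windows shown. A match is a run of letters and not a measured site, and no match says only that these letters are not in this window.

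Mbp, the major protein of the inner face of compact myelin, read 11.27, 11.50 and 11.53 in wild type, 11.14, 11.00 and 11.41 in SmoA2, and 11.80, 11.69 and 11.48 in Smo/Smo. SmoA2 overlapped wild type and lay below Smo/Smo. The difference between the mutants was -0.47 ± 0.12 (limma, adjusted p = 0.0895), that of SmoA2 from wild type -0.25 ± 0.12, and that of Smo/Smo from wild type 0.22 ± 0.12. Its other probe sets showed smaller differences between the mutants, -0.08 ± 0.05 and -0.09 ± 0.07. From wild type they differed by 0.01 ± 0.05 and 0.04 ± 0.07 in SmoA2, so they did not share the lower reading there. In Smo/Smo they differed from wild type by 0.08 ± 0.05 and 0.13 ± 0.07.

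Mobp, another protein of compact myelin, and Mag, the adhesion protein that faces the axon, had the largest differences in Smo/Smo. Mobp read 7.82, 8.47 and 8.25 in wild type, 7.82, 7.96 and 8.39 in SmoA2, and 9.35, 8.79 and 8.39 in Smo/Smo. Smo/Smo replicate 1 was the highest, and Smo/Smo replicate 3 lay within the wild type range. The difference from wild type was 0.66 ± 0.26 (limma, adjusted p = 0.491), with an interval of 0.08 to 1.24, and without Smo/Smo replicate 1 it was 0.41. Mag read 6.63, 6.90 and 6.81 in wild type, 6.74, 6.71 and 7.09 in SmoA2, and 7.61, 7.40 and 6.98 in Smo/Smo. All Smo/Smo arrays were above the wild type arrays, by 0.55 ± 0.16 (adjusted p = 0.319). In SmoA2 the difference from wild type was -0.13 (interval -0.71 to 0.45) for Mobp and 0.07 (-0.30 to 0.43) for Mag.

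Aspa, the enzyme that splits N-acetylaspartate, read 7.18, 7.40 and 7.29 in wild type, 6.97, 7.08 and 6.95 in SmoA2, and 7.27, 7.19 and 7.04 in Smo/Smo. The SmoA2 arrays lay below the wild type arrays, by -0.29 ± 0.08 (limma, adjusted p = 0.122). Mal, a proteolipid of myelin sorting, also read lower in all SmoA2 than in all wild type arrays, by -0.28 ± 0.16 (adjusted p = 0.458). The other myelin genes overlapped between SmoA2 and wild type. Differences from wild type in SmoA2 were -0.10 for Cnp, a phosphodiesterase of non-compact myelin, -0.14 for Ugt8a, which makes galactosylceramide, and -0.00 for Fa2h, which hydroxylates its fatty acids. Opalin, a membrane protein of myelin, differed by 0.06, Ermn, a cytoskeletal protein, by -0.04, and the homeodomain factor Nkx6-2 by 0.02. The gap junction protein Gjb1 differed by 0.29, at levels of 3.21 to 4.04 that lay in the range of background.

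**Figure D3:**
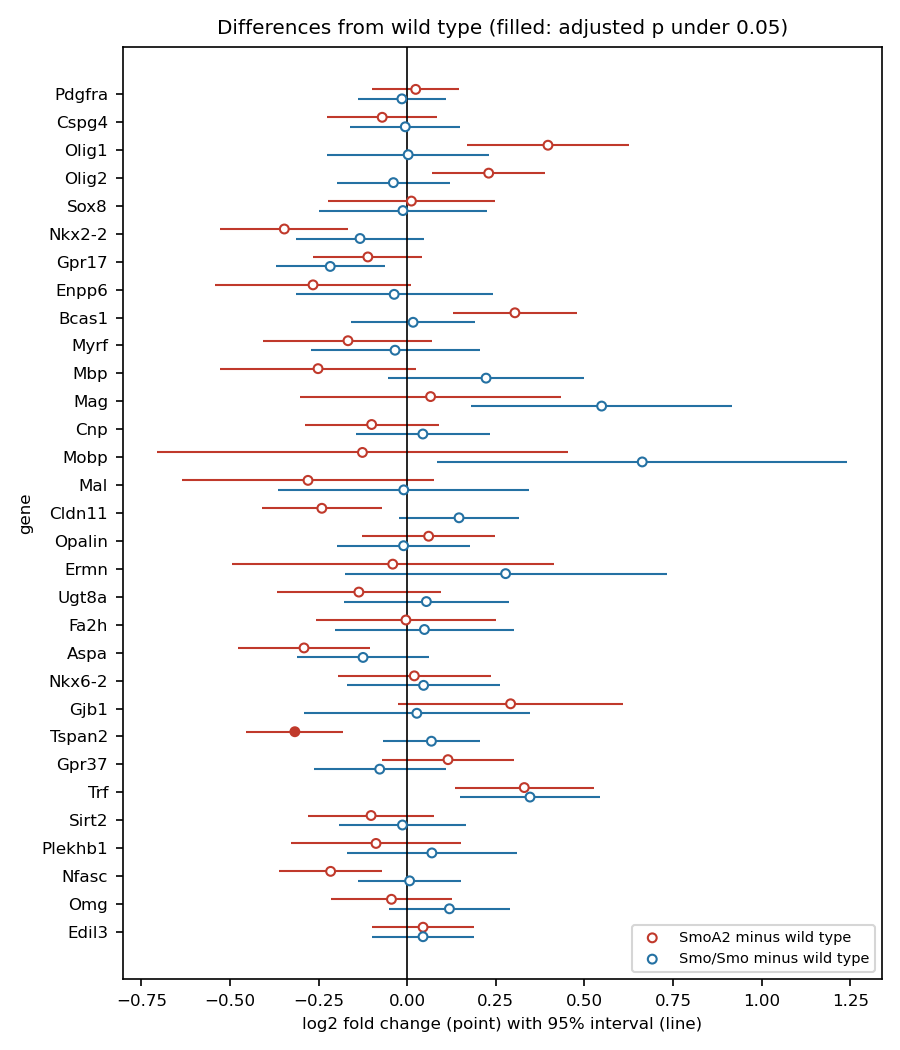
Points give the log2 fold change of each of the 31 genes in SmoA2 and in Smo/Smo against wild type and lines the 95% interval, and a filled point passed an adjusted p of 0.05. Tspan2 in SmoA2 is the one filled point, and the widest intervals are those of Mobp.

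Of the broader genes, Trf, the iron carrier transferrin, was the one that read higher than wild type in all arrays of both mutants. Its log2 intensity was 11.00, 11.20 and 11.19 in wild type, 11.36, 11.42 and 11.60 in SmoA2, and 11.58, 11.45 and 11.40 in Smo/Smo. The mutant arrays overlapped each other and lay above wild type. The difference was 0.33 ± 0.09 in SmoA2 (limma, adjusted p = 0.0941) and 0.35 ± 0.09 in Smo/Smo (adjusted p = 0.219). Trf is also made by the choroid plexus, and 11 of 11 choroid plexus markers read higher in every array of both mutants than in every wild type array, with none of them called by limma. An unadjusted p under 0.05 was found for 10 of them in SmoA2 and 9 in Smo/Smo, where 14.8% and 8.77% of all genes passed. Of all genes, 19.1% did not overlap in the SmoA2 comparison, counting either direction, and 15.9% in that of Smo/Smo. The mean log2 level of the choroid plexus markers was 8.54, 8.45 and 6.26 in wild type, 9.01 to 9.26 in SmoA2 and 9.30 to 9.57 in Smo/Smo. Wild type replicate 3 stood apart in these markers, with Ttr at 4.95, within background, against 11.39 and 11.26 in the other wild type arrays, and its Trf, at 11.19, was not the lowest. The part of choroid plexus RNA in the Trf values was not tested.

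Nfasc, a cell adhesion gene of the node of Ranvier that neurons also express, read 9.62, 9.69 and 9.59 in wild type, 9.51, 9.42 and 9.31 in SmoA2, and 9.61, 9.67 and 9.63 in Smo/Smo. The SmoA2 arrays were the lowest, at -0.22 ± 0.06 against wild type (limma, adjusted p = 0.146) and -0.22 ± 0.06 against Smo/Smo (adjusted p = 0.132). A second Nfasc probe set, at 7.35 in wild type, read lower in both mutants, by -0.38 ± 0.13 in SmoA2 and -0.28 ± 0.13 in Smo/Smo. Between the mutants it differed by -0.09 ± 0.13. Another, at 3.18 in wild type, lay within background. Sirt2, a deacetylase abundant in myelin, differed from wild type by -0.10 in SmoA2 and -0.01 in Smo/Smo. Plekhb1 differed by -0.09 and 0.07, Omg, a myelin glycoprotein that neurons also make, by -0.04 and 0.12, and Edil3 by 0.04 and 0.04. Gpr37, a receptor of maturing oligodendrocytes, read within background in all groups, with differences of 0.12 and -0.08.

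Set against each other, the myelin genes read lower relative to the precursor genes in SmoA2 than in Smo/Smo. The mean deviation of the 14 myelin genes from their wild type means, minus that of the 6 precursor genes, was -0.10, 0.03 and 0.07 in the wild type arrays, -0.19, -0.21 and -0.01 in SmoA2, and 0.33, 0.13 and 0.07 in Smo/Smo. The SmoA2 arrays overlapped the wild type range, Smo/Smo replicate 3 was level with wild type replicate 3, and the mutants did not overlap. The wild type mean was 0.00 ± 0.09 (SD, n = 3), the SmoA2 mean -0.14 ± 0.11 and the Smo/Smo mean 0.18 ± 0.14. No test was made of a score over chosen genes. Within the myelin group, 10 of 14 differences from wild type were below 0 in SmoA2 and 11 of 14 were above 0 in Smo/Smo, with medians of -0.11 and 0.05. Of all 19147 genes, 9162 were below 0 in SmoA2 and 10000 were above 0 in Smo/Smo. The 14 include Ermn, Nkx6-2 and Gjb1, whose means lay within background. Single arrays stood out within the groups. Smo/Smo replicate 1 was the highest of the 9 arrays for 7 of 14 myelin genes, while wild type replicate 1 was the lowest for 6 and SmoA2 replicate 2 for 5. Without Smo/Smo replicate 1 the Smo/Smo value was 0.10, and with Pdgfra and Cspg4 alone as precursor genes, which leaves out Olig1 and Olig2, the SmoA2 value was -0.07.

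**Figure D4:**
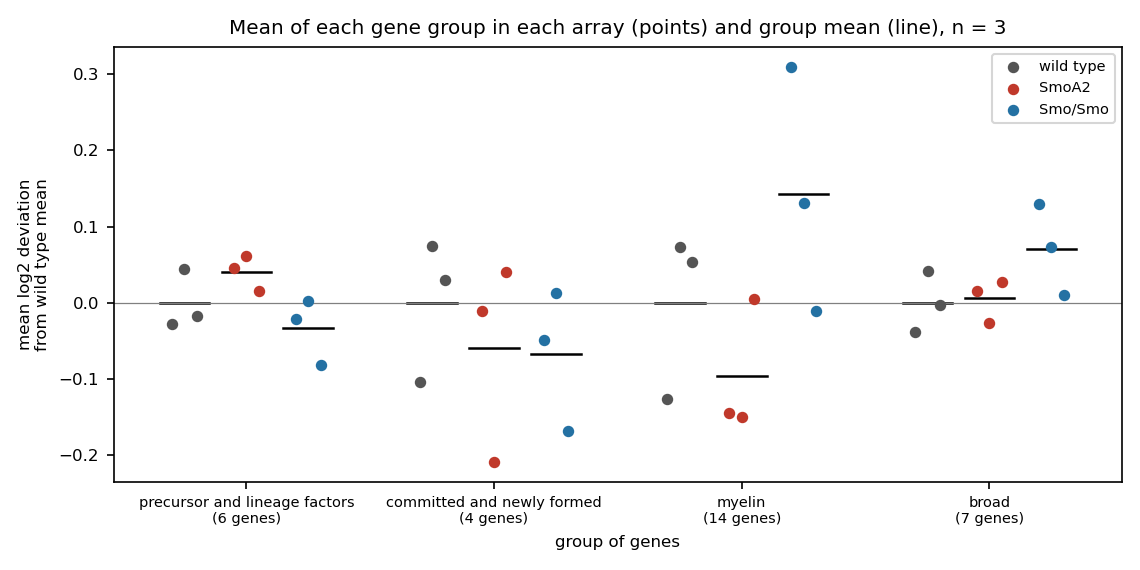
Points give, for each array, the mean log2 deviation from the wild type means over the genes of a group, and lines the mean of 3 arrays. The mean of the 6 precursor genes stays within 0.1 of 0 in all arrays. Single genes among them do not, as in SmoA2 Olig1 differed from wild type by 0.40, Olig2 by 0.23 and Nkx2-2 by -0.35. The mean of the 14 myelin genes spreads from -0.15 in SmoA2 replicate 2 to 0.31 in Smo/Smo replicate 1.

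Other genes of the lineage were taken from 3 lists. The share called in SmoA2 against wild type was 6.25% of further precursor genes, 17.9% of further myelin genes and 11.1% of signals and regulators. Over all genes it was 2.69%, with a median log2 fold change of 0.01. Of 16 further precursor genes, 1 rose in SmoA2 and none fell, with a median of -0.08. It was C1ql1, a secreted protein that precursors and also neurons that project to the cerebellum make, which rose by 0.38 ± 0.07 (limma, adjusted p = 0.03). Of 28 further myelin genes, 2 rose and 3 fell, with a median of -0.09. Hapln2, a link protein of nodes of Ranvier, rose by 0.33 ± 0.06 (adjusted p = 0.0243), and Car2, carbonic anhydrase 2, rose by 0.93 ± 0.13 (1.91-fold, adjusted p = 0.00699). Adamts4, a protease of the extracellular matrix, fell by 0.49 ± 0.08 (adjusted p = 0.0126), Gamt, which makes creatine, fell by 0.55 ± 0.07 (adjusted p = 0.00465), and Ndrg1 fell by 0.50 ± 0.08 (adjusted p = 0.0143). With the mean of both Ndrg1 probe sets that difference was -0.32 (adjusted p = 0.154). In Smo/Smo against wild type limma called none of these genes, nor any of the signals and regulators described next. An unadjusted p under 0.05 was found there for 2 of 16 further precursor genes, 3 of 28 further myelin genes and 5 of 27 signals and regulators. Of all genes, 8.77% passed at that level in the same comparison.

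Car2 read 7.48, 7.59 and 7.16 in wild type, 8.30, 8.55 and 8.17 in SmoA2, and 8.14, 7.92 and 7.96 in Smo/Smo. Both mutants lay above wild type, with a difference of 0.60 ± 0.13 in Smo/Smo (limma, adjusted p = 0.155). The choroid plexus makes Car2 too, and wild type replicate 3, where the choroid plexus markers are lowest, was the lowest for Car2. Its call in SmoA2 was kept in all 9 fits without 1 array, that without wild type replicate 3 included (adjusted p of at most 0.0275), and what part choroid plexus RNA had in the level was not tested. Gamt read 9.20, 9.29 and 9.25 in wild type, 8.69, 8.61 and 8.81 in SmoA2, and 9.14, 9.21 and 9.05 in Smo/Smo. The SmoA2 arrays stood clear below the rest, and the difference from Smo/Smo was -0.43 ± 0.07 (adjusted p = 0.0161). Adamts4 was also lower in SmoA2 than in Smo/Smo, by -0.42 ± 0.08 (adjusted p = 0.0277), a call that needed wild type replicates 1 and 2, SmoA2 replicates 2 and 3 and all Smo/Smo arrays, since it was lost when any 1 of these was left out. The C1ql1 and Hapln2 calls were each lost in 6 of 9 such fits, with an adjusted p of up to 0.109 and 0.102. For C1ql1 those were the fits without wild type replicate 1 or 3, SmoA2 replicate 1 or 3 or Smo/Smo replicate 2 or 3. For Hapln2 they were those without wild type replicate 1 or 2, any SmoA2 replicate or Smo/Smo replicate 2.

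Of 27 signals and regulators of the lineage, 1 rose and 2 fell in SmoA2, with a median of -0.05, and the gene that rose encodes a ligand of Pdgfra. Pdgfa, the growth factor that drives division of oligodendrocyte precursors, read 9.46, 9.56 and 9.39 in wild type, 10.13, 10.18 and 10.27 in SmoA2, and 9.77, 9.72 and 9.62 in Smo/Smo. The 3 groups did not overlap, with Smo/Smo between the others. Pdgfa rose by 0.72 ± 0.07 in SmoA2 (1.65-fold, limma, adjusted p = 0.00115) and was 0.49 ± 0.07 higher in SmoA2 than in Smo/Smo (adjusted p = 0.00969), while Smo/Smo read 0.23 ± 0.07 above wild type (adjusted p = 0.348). These Pdgfa calls held in all 9 fits without 1 array and under all 11 other settings. Its receptor Pdgfra, given above, differed from wild type by 0.02.

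Pdgfc, another ligand of Pdgfra, went down. It read 11.30, 11.24 and 11.35 in wild type, 10.85, 10.96 and 10.86 in SmoA2, and 11.22, 11.33 and 11.34 in Smo/Smo. It fell by 0.41 ± 0.06 in SmoA2 (limma, adjusted p = 0.00982) and was lower than in Smo/Smo by the same amount (adjusted p = 0.0113). Id4, an inhibitor of differentiation, fell by 0.28 ± 0.06 (adjusted p = 0.0342), a call lost in all 9 fits without 1 array, with an adjusted p of 0.0564 to 0.129. With the mean of both its probe sets Id4 differed by -0.04 (adjusted p = 0.846). Against Smo/Smo, SmoA2 was also lower for Fgfr2, a growth factor receptor, by -0.46 ± 0.09 (adjusted p = 0.031), and for Gpr37l1, a receptor of astrocytes, by -0.68 ± 0.11 (adjusted p = 0.0132). Without 1 array, the Fgfr2 call was lost in 7 of 9 fits, those without any wild type or Smo/Smo replicate or SmoA2 replicate 1, and under 6 of 11 other settings. With the mean of its 3 probe sets Fgfr2 differed by -0.28 (adjusted p = 0.111). Gpr37l1 lost its call without Smo/Smo replicate 1 or 2, Pdgfc its call against Smo/Smo without Smo/Smo replicate 2 or 3, and Gamt its own without SmoA2 replicate 1 or Smo/Smo replicate 1 or 2. Ndrg1 lost its call without SmoA2 replicate 1 and without wild type replicate 1 or 2, and Adamts4 its call against wild type without wild type replicate 1 or 2.

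**Figure D5:**
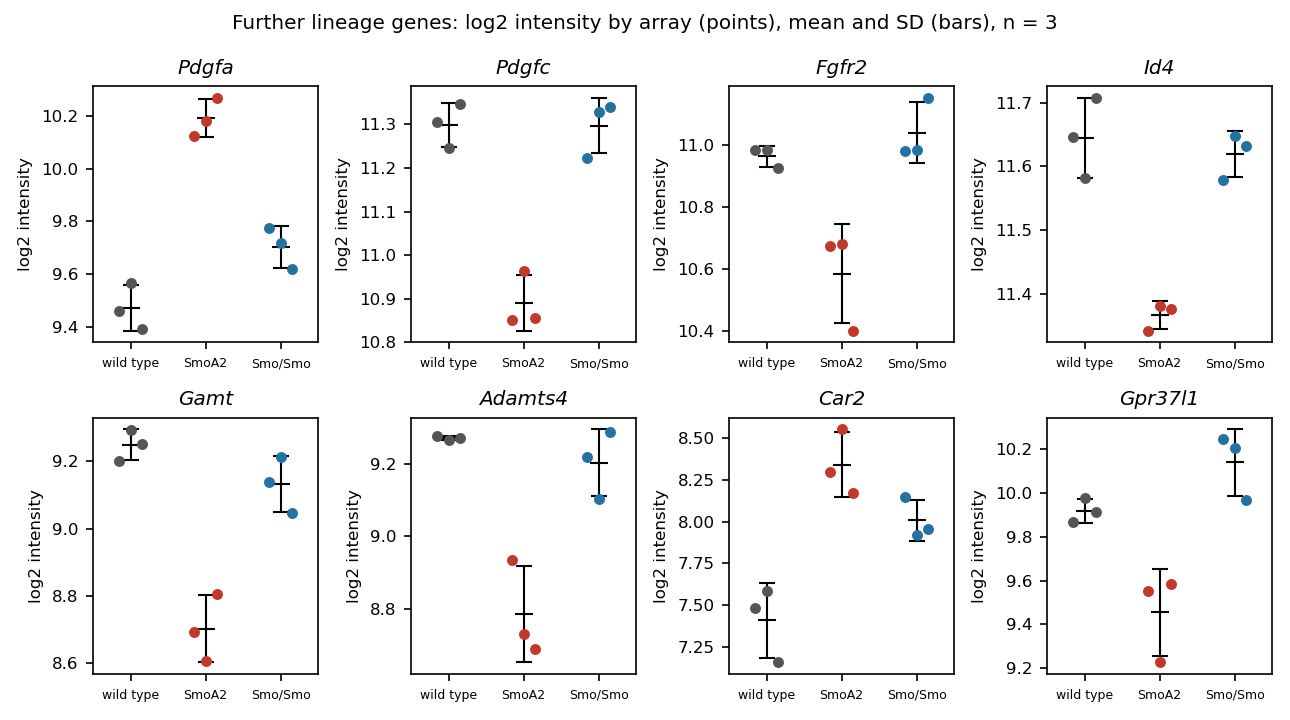
Each panel plots the log2 intensity of 1 further lineage gene in the 9 arrays, with the group mean and SD (n = 3). Pdgfa and Car2 are highest in SmoA2, with Smo/Smo between SmoA2 and wild type, and the other 6 genes are lowest in SmoA2.

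Id4, Fgfr2 and Gpr37l1 are also expressed by astrocytes and Bergmann glia. Of 15 markers of those cells, 3 fell in SmoA2 and none rose, and 3 were lower in SmoA2 than in Smo/Smo. Their mean log2 level was 10.76 to 10.80 in wild type, 10.42 to 10.50 in SmoA2 and 10.75 to 10.79 in Smo/Smo, and the lead genes in SmoA2 were Wif1 (-1.21) and Gdf10 (-0.59). Their part in the values of Id4, Fgfr2 and Gpr37l1 was not tested. Of 5 markers of Schwann cells, the myelinating cells of peripheral nerves that share several members, 1 rose in SmoA2, Dhh by 0.61 (limma, adjusted p = 0.0404), at a mean log2 level of the markers of 4.92 to 5.06 in wild type, 5.21 to 5.26 in SmoA2 and 4.95 to 5.05 in Smo/Smo, all within background. Calls in the other lists were 3 of 12 endothelial and mural, 3 of 7 Purkinje cell and 3 of 6 GABAergic interneuron markers lower in SmoA2 than in wild type. Of 10 granule neuron markers 1 rose, and of 9 microglial and 12 brainstem markers limma called none in that comparison. An unadjusted p under 0.05 was found for 3 of each of the last 2 lists, where 14.8% of all genes passed. Over all genes, 2.69% were called in SmoA2 against wild type, 1.73% lower, and 1.54% were called lower in SmoA2 than in Smo/Smo. Against Smo/Smo, 2 of the 9 microglial markers were higher in SmoA2, P2ry12 by 0.80 (adjusted p = 0.01) and Aif1 by 0.57 (adjusted p = 0.0251). Of all 19147 genes, 196 were called higher in that comparison.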

How the data were processed

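Total RNA of 9 samples of cerebellum was measured, 1 array each. The authors deposited 1 intensity per probe set and array, made with RMA (robust multi-array average) per the submitters' processing notes, with no version. These values are on a linear scale, and log2 was taken here. RMA can narrow the differences of dim probe sets.

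Tests used R 4.3.3 and limma 3.58.1 (lmFit, eBayes), in 1 model of 9 arrays with a mean per group, adjusted by Benjamini-Hochberg over 19147 genes and called under 0.05. Errors of fold changes are SE from limma, and intervals are 95%. The fit was tested on 20 simulated data sets, each with 200 genes changed in SmoA2. It called 17.1% of changes of 0.3 on the log2 scale, 53.8% of those of 0.5 and 90.5% of those of 1. Of its calls, 4.23% were false. Most changes of 0.3 were thus missed. Every listed member is named, with each called gene of the further lists and the genes of smallest p of other cell types. Members, lists and tests were chosen with earlier results of these data known. The ACAAAG search was added last. Promoters are from RefSeq (GRCm38.p6), and figures used matplotlib 3.10.9. Alternatives were other probe sets, a filter on low values, other normalization, variance models, array weights, sex as a covariate, a threshold of 0.01 and arrays left out.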

Additional observations from a re-analysis of the deposited data

Results flagged for a closer look

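Differences between the mutants themselves, which are tests of whether the SmoA2 and Smo/Smo effects differ, passed an adjusted p of 0.05 (limma) for 8 genes of the lineage. Among the 31 members these were Tspan2 at -0.39 and Cldn11 at -0.39, given as log2 differences of SmoA2 from Smo/Smo. Among the further genes, Pdgfa was higher in SmoA2, at 0.49. The others were lower, with Pdgfc at -0.41, Fgfr2 at -0.46, Gpr37l1 at -0.68, Gamt at -0.43 and Adamts4 at -0.42. The share called was 6.45% of members, 0% of further precursor genes, 7.14% of further myelin genes and 14.8% of signals and regulators. Over all genes it was 2.56% in the same comparison. The Smo/Smo mice have codes of another prefix, and the labels do not say what it stands for. Genotype and whatever the prefix marks cannot be told apart in the differences between the mutants.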

How the results depend on the processing

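Nkx2-2 in SmoA2 against wild type changed sign with the probe set of largest variance, to 0.26, uncalled, and the median of the members in Smo/Smo against wild type, 0.02, ranged from -0.00904 to 0.0546 when 1 array was left out. No called gene and no difference between myelin and precursor genes changed direction. The number of members called in SmoA2 against wild type, 1 as reported, was 0 with the probe set of largest variance, with only the groups compared, with sex as a covariate, at an adjusted p under 0.01, and on dropping both wild type replicate 3 and SmoA2 replicate 3. It was 2, Nkx2-2 being added, with array weights, quantile normalization, a filter on low values or centring on array medians, and 5 with an intensity trend and robust eBayes, which called Bcas1, Nkx2-2, Olig1, Trf and Tspan2. Leaving out 1 array gave 0 to 1, the member being Olig1 or Bcas1 rather than Tspan2 without SmoA2 replicate 1 or 2. In SmoA2 against Smo/Smo, 2 as reported, the number was 1 with the probe set of largest variance, centring, only the groups compared or sex as a covariate, 0 at an adjusted p under 0.01, 3 with array weights, which added Mbp, and 6 with an intensity trend and robust eBayes, which called Bcas1, Cldn11, Mbp, Olig1, Olig2 and Tspan2. Leaving out 1 array gave 0 to 2. Calls over all 19147 genes were counted for quantile normalization and centring. In SmoA2 against wild type they were 535 and 472, against 515 as reported, and in SmoA2 against Smo/Smo 517 and 465, against 490. For the other settings, the intensity trend and robust eBayes included, calls over all genes were not counted. A gain in members there cannot be told apart from a gain over all genes. In Smo/Smo against wild type no setting called a member, and 4 of 31 had an unadjusted p under 0.05. The median of the members in SmoA2 against Smo/Smo was -0.186 to -0.0662 when 1 array was left out, the latter without Smo/Smo replicate 1. The cause of these changes was not tested. No paired analysis was possible because the labels share no replicate numbers between groups. With 3 arrays a group, members that missed the threshold are not shown to be alike.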
